A study of Mus musculus with 4 samples.

Results

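The 4 Hox clusters of the mouse were examined in 2 lists of Rad21 peaks, 1 from neural stem cells (NSCs) and 1 from astrocytes (ASTs). A peak is a position at which the authors' peak caller found more Rad21 ChIP-seq fragments than local background. Members were taken by position alone, as all peaks whose start lay in 1 of 4 intervals of genome build mm9, each made of a cluster and about 200 kb on either side. In all, 76 of 34562 peaks lay there, 40 of the 18405 in the NSC list and 36 of the 16157 in the AST list. The intervals were chr6:51900001-52430000 for Hoxa, chr11:95850001-96430000 for Hoxb, chr15:102550001-103070000 for Hoxc and chr2:74300001-74810000 for Hoxd. Each interval less 200 kb at both ends was taken as the cluster itself, 540 kb in sum over the 4, and the rest, 1600 kb, as flanks. These edges were not checked against an mm9 annotation, and all counts inside and in flanks and all distances from an edge rest on them.

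NSCs divide and can give rise to neurons and glia. In this study they were clonal populations derived from mouse embryonic stem cells and grown without serum in EGF and FGF, and ASTs were their post-mitotic progeny, kept in BMP and FGF. The labels also list laminin, and no treatment for either culture. For NSCs and for ASTs alike there was a single library of DNA precipitated with a Rad21 antibody and a single one of input DNA, made without an antibody. With no replicates, a difference between the cell types could not be set against a spread between replicates, and no p-value was computed. Intervals given in parentheses are exact 95% intervals. Those of counts, densities, shares and ratios cover counting error only. Those of medians give the uncertainty of the median that comes from differences between peaks, and not the range of the peaks. All of them take peaks as independent draws, and are too narrow where peaks lie in groups. The sources used here do not give read totals.

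Hox genes encode homeodomain transcription factors that give cells their position along the axis of the body, the hindbrain and the limbs. They lie in 4 clusters in which the order of the genes follows the order of their expression from head to tail, so that genes of low number act in the hindbrain and neck and genes of high number in the trunk, tail and distal limb. Rad21 is the subunit that closes the cohesin ring. Cohesin gathers at sites of the DNA-binding protein CTCF, and such sites inside Hox clusters are known to separate stretches of active from stretches of silenced genes.

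The 38 Hox genes listed for the clusters were matched by name in a RefSeq gene table of build GRCm38, which was used for their order and overlap alone. From the lower to the higher coordinate, the Hoxa cluster ran from Hoxa2 through Hoxa3, Hoxa4, Hoxa5, Hoxa6, Hoxa7, Hoxa9, Hoxa10 and Hoxa11 to Hoxa13. The spans of Hoxa4, Hoxa5 and Hoxa6 lie within that of Hoxa3. The other clusters were in the opposite orientation. The Hoxb cluster began with Hoxb13 and went on with Hoxb9, Hoxb8, Hoxb7, Hoxb6 and Hoxb5, then Hoxb4, whose span lies within that of Hoxb3, and Hoxb2 to Hoxb1. The Hoxc cluster began with Hoxc13, Hoxc12, Hoxc11, Hoxc10, Hoxc9 and Hoxc8 and ended with Hoxc6, Hoxc5 and Hoxc4. The Hoxd cluster began with Hoxd13, Hoxd12, Hoxd11, Hoxd10, Hoxd9 and Hoxd8 and ended with Hoxd4, whose span lies within that of Hoxd3, and Hoxd1. Since the builds differ, no peak was assigned to a gene, an exon or a promoter, and the end genes serve below only to name the sides of a cluster. The bases under the peaks were not analysed here.

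**Figure D1:**
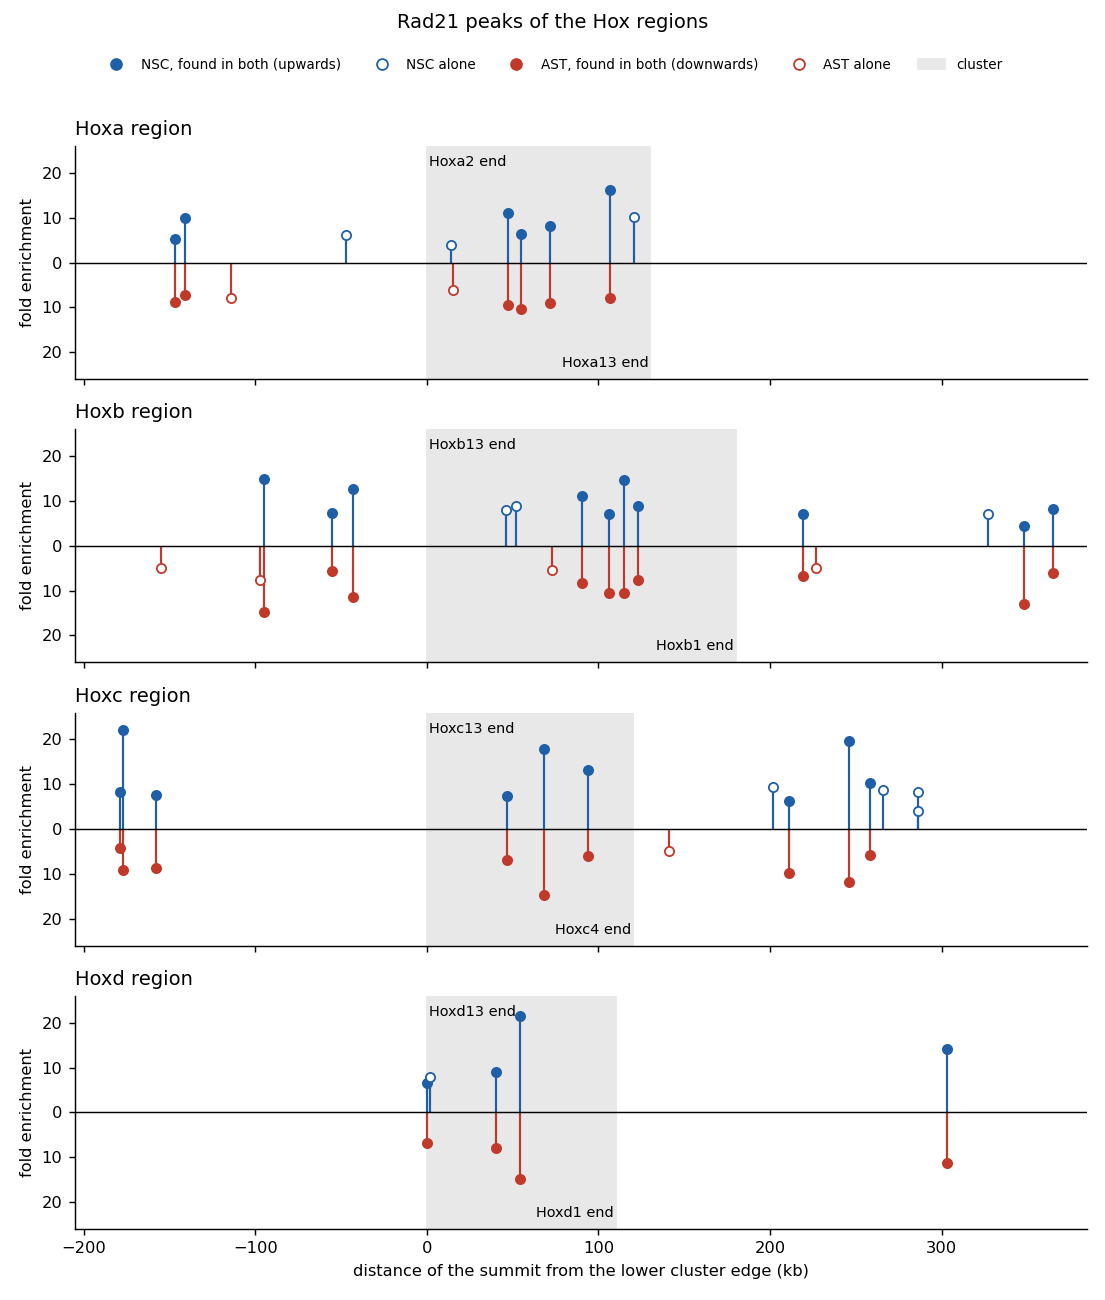
Rad21 peaks of the 4 Hox regions, each drawn at its summit (horizontal axis, distance in kb from the lower cluster edge) to its fold enrichment in its own list (vertical axis), NSC peaks upwards in blue and AST peaks downwards in red. Grey bands are the clusters, filled circles are peaks found in both lists and open circles peaks found in 1. The upper flank of Hoxa has no peak, and the Hoxd peaks inside the cluster lie within 54.0 kb of the edge on the Hoxd13 side.

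The first question was whether cohesin sites gather inside the clusters. Both lists were denser there than in the flanks. NSCs had 18 peaks inside the clusters, or 33.3 per Mb (19.8 to 52.7), and 22 in the flanks, or 13.75 per Mb (8.62 to 20.8). ASTs had 15 inside, or 27.8 per Mb (15.5 to 45.8), and 21 in the flanks, or 13.1 per Mb (8.12 to 20.1). The whole lists held 6.98 and 6.13 peaks per Mb, the length of a chromosome being taken as the end of the last peak on it. Density inside the clusters was 2.42 times that in the flanks in NSCs (1.23 to 4.73) and 2.12 times in ASTs (1.01 to 4.31). The excess leaned on Hoxa, as without that cluster the ratio was 1.85 in NSCs (0.818 to 4.01) and 1.63 in ASTs (0.671 to 3.72), and both intervals took in 1. It also leaned on the edges and, less, on Hoxd. With edges drawn 25 kb further out the ratio was 1.71 (0.87 to 3.34) and 1.69 (0.827 to 3.44), and with edges as far in it was 2.85 (1.38 to 5.66) and 2.99 (1.39 to 6.16). Without Hoxd it was 2.09 (0.997 to 4.3) and 1.91 (0.867 to 4.08).

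The clusters differed in how full they were. In NSCs, Hoxa and Hoxb held 6 peaks each and Hoxc and Hoxd 3 each. In ASTs the numbers were 5, 5, 3 and 2 in that order. As a background, the genome was tiled in windows as long as each cluster. Windows with as many NSC peaks or more made up 0.641% of those as long as Hoxa, 1.98% for Hoxb, 10.1% for Hoxc and 8.53% for Hoxd. For AST peaks the shares were 1.05%, 3.11%, 7.91% and 17.6%. Hoxa and Hoxb thus lay among the fuller windows of their size in both lists. Counts as high as those of Hoxc and Hoxd were less rare. Hoxc held 25 peaks per Mb in both lists (5.16 to 73.1), and Hoxd 27.3 in NSCs (5.62 to 79.7) and 18.2 in ASTs (2.20 to 65.7). These densities lay above the 6.98 and 6.13 of the whole lists, but rested on 2 or 3 peaks each. All their intervals took in the density of the whole list.

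**Figure D2:**
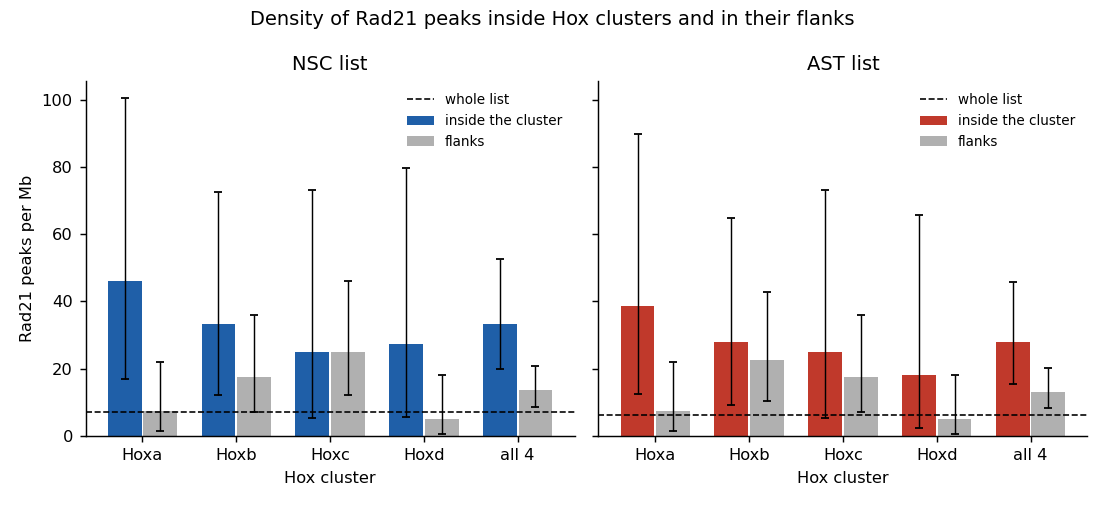
Rad21 peaks per Mb (vertical axis) inside each Hox cluster (coloured bars) and in its flanks (grey bars) for NSCs and ASTs, with exact 95% intervals for counting error and the density of the whole list as a dashed line. Inside the 4 clusters together the density was 33.3 per Mb in NSCs and 27.8 in ASTs, against 13.75 and 13.1 in the flanks, and in Hoxc of NSCs the bars are of equal height.

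Only Hoxa, taken alone, had an interval clear of 1, and only in NSCs, where density inside was 6.15 times that in the flanks (1.31 to 38). In ASTs it was 5.13 times (0.998 to 33.0). For Hoxb the ratio was 1.90 in NSCs and 1.23 in ASTs, for Hoxc 1.00 and 1.43, and for Hoxd 5.45 and 3.64, all with intervals that took in 1. The flanks of Hoxc and Hoxb were themselves rich in sites, with 10 and 7 NSC peaks and 7 and 9 AST peaks. Those of Hoxa held 3 peaks in each list and those of Hoxd 2.

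Inside the clusters, the median distance between adjacent starts was 16.5 kb in NSCs over 14 distances and 17.1 kb in ASTs over 11, against 58.95 and 68.1 kb over the whole lists. Distances under 20 kb made up 57.1% of those inside the clusters in NSCs and 63.6% in ASTs. Over the whole lists the share was 24.99% and 21.85%. Distances in the Hox regions with at least 1 flank peak had a median of 20.1 kb in NSCs, with 50% under 20 kb, and of 40.2 kb in ASTs, with 38.1%. In NSCs the medians inside and around the clusters thus lay close to each other, and the length of a cluster caps the distances inside it. The shortest inside the clusters was 5.26 kb in NSCs and 7.20 kb in ASTs, and the longest 38.7 and 35.3 kb.

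The Hoxa cluster carried 7 sites, of which 4 were found in both cell types, a site being a peak or the overlapping peaks of both lists. The end of the cluster on the side of Hoxa2, which patterns the hindbrain and its neural crest, had a weak NSC peak and a weak AST peak that did not overlap. The NSC peak lay at chr6:52113750-52113879, with a fold enrichment of 4.01. This ratio compares the fragments at a summit with local background, and ranked the peak at the 2.54th percentile of its list. Local background at this peak was 1.24 times the usual. The AST peak lay at chr6:52115275-52115421, with a fold enrichment of 6.08 (24.5th percentile). Their summits were 1604 bp apart.

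Further in, a site at chr6:52147311-52147605 had nearly the same rank in both cell types, with a fold enrichment of 11.15 in NSCs (65.3rd percentile) and 9.51 in ASTs (65.9th). The next, at chr6:52154468-52154767, ranked low in NSCs and higher in ASTs, at 6.45 (30.2nd percentile) and 10.27 (71.1st). A site at chr6:52171686-52171917 showed 8.21 in NSCs (46.6th) and 9.13 in ASTs (62.4th). These 3 sites lay between 47.5 and 71.8 kb from the edge on the Hoxa2 side, around the middle of the cluster.

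Towards Hoxa13, a gene of the distal limb and the genital tract, there were 2 further sites. The site at chr6:52206987-52207293 was the strongest NSC site of the cluster, with a fold enrichment of 16.13 (84.3rd percentile), but of middle rank in ASTs, at 7.98 (51.3rd). A last site, at chr6:52220609-52220832, was found in NSCs alone, at 10.27 (60.5th percentile), with the nearest AST summit 13.6 kb away. Beyond it no site followed in either list within the region. The next NSC peak started at 52527306, a gap of 306.7 kb, and the next AST peak at 52527368, a gap of 320.4 kb from its last Hoxa site. Of all gaps between adjacent peaks, 9.20% in NSCs and 10.6% in ASTs were as long. All 3 flank peaks of each list thus lay on the Hoxa2 side. The strongest was at chr6:51958842-51959110 in NSCs (9.97) and at chr6:51952844-51953074 in ASTs (8.75), both found in the other list too.

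The Hoxb cluster likewise carried 7 sites, 4 of them in both cell types. The 4 shared sites formed a run within the upper part of the cluster, between 90.3 and 123 kb from the edge on the Hoxb13 side. The run began at chr11:96140155-96140394, with a fold enrichment of 11.15 in NSCs (65.3rd percentile) and 8.36 in ASTs (55.3rd). It went on at chr11:96155866-96156107, where the rank was 36.2 in NSCs (fold enrichment 7.04) and 73.6 in ASTs (10.65). The site at chr11:96164465-96164711 was the strongest of the cluster in NSCs, at 14.67 (79.9th percentile), and equal to its neighbour in ASTs, at 10.65. The run closed at chr11:96172944-96173222, with 8.80 in NSCs (51.1st) and 7.60 in ASTs (46.4th). Summits of the last 3 sites differed by only 3, 3 and 5 bp between the cell types.

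The sites found in 1 cell type lay apart from this run, towards Hoxb13. A pair of NSC sites was at chr11:96096297-96096476 (8.04, 45.5th percentile) and chr11:96101561-96101800 (8.78, 50.4th), the nearest AST summits being 26.7 and 21.4 kb away. The AST site, at chr11:96123009-96123168, was weak (5.32, 13.2nd percentile). From the end of the run to the flank beyond Hoxb1, which marks a segment of the hindbrain, there was no peak in either list for about 96.1 kb, and 35.2% of NSC and 39.5% of AST gaps were as long. In the flanks, the strongest peak of both lists was the same site, at chr11:95954719-95954998, with 14.91 in NSCs and 14.83 in ASTs. Local background at its NSC summit was 1.55 times the usual.

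The Hoxc cluster carried 3 sites, and all 3 were found in both cell types. They lay at 47.0, 68.0 and 94.1 kb from the edge on the Hoxc13 side. The middle one, at chr15:102817839-102818197, was strong in both lists, with a fold enrichment of 17.89 in NSCs (88.2nd percentile) and 14.83 in ASTs (90.3rd). The site at chr15:102796838-102797116 was weaker, at 7.33 (39.2nd) and 6.84 (35.6th), and its summit fell on the same base in both lists. The third, at chr15:102844017-102844301, stood at 13.20 in NSCs (74.7th) and at 6.02 in ASTs (22.1st), where local background was 1.2 times the usual. Below the cluster the distance to the previous peak was 204.7 kb in the NSC list and 204.6 kb in the AST list, and 15.6% and 19.0% of gaps were as long.

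The flanks of Hoxc held the strongest NSC peak of all 4 regions, at chr15:102573042-102573434, with a fold enrichment of 22.0 (94.5th percentile) against 9.18 (63.8th) in ASTs. Local background at its AST summit was 1.2 times the usual. The strongest AST flank peak of this region lay at chr15:102995899-102996206, with 11.79 (80.1st percentile) against 19.66 (91.4th) in NSCs. Sites found in NSCs alone numbered 4 in these flanks, all on the Hoxc4 side, and 2 of them started only 0.398 kb apart. Of the 10 NSC peaks in these flanks 60% were shared (26.2 to 87.8), close to the 65.5% of all NSC peaks. Among the sites found in NSCs alone 2 exceeded the median of their list, at chr15:102951868-102952137 (9.39) and chr15:103016329-103016547 (8.80). The only AST site without an NSC partner, at chr15:102890908-102891107, was weak (4.94, 9.01st percentile).

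The sites of the Hoxd cluster lay between stretches without peaks, and the upper stretch began inside the cluster. This cluster is known to lie between a pair of gene-poor landscapes whose enhancers drive Hoxd genes in the limbs. Its strongest site, at chr2:74553838-74554399, was also the strongest inside any of the clusters in NSCs, with a fold enrichment of 21.42 (93.9th percentile) and a width of 562 bp. In ASTs it stood at 14.83 (90.3rd percentile), equal to the middle Hoxc site, and was 376 bp wide. A weaker site at chr2:74540352-74540702 had 9.09 in NSCs (53.1st) and 7.98 in ASTs (51.3rd). On the Hoxd13 side an NSC site at chr2:74501714-74501891 (7.92, 44.4th percentile) had no partner, the nearest AST summit being 1767 bp away.

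That AST summit belonged to a site at chr2:74499938-74500129, found in both cell types (6.45 in NSCs and 6.84 in ASTs), which counted as flank because its peaks started 63 and 57 bp outside the edge. Placed by their summits instead, these peaks fell inside the cluster, and the density ratio over the 4 clusters rose to 2.68 in NSCs (1.36 to 5.24) and 2.37 in ASTs (1.15 to 4.81). Below this site the previous peak was 361.3 kb away in the NSC list and 361.5 kb in the AST list, and 7.39% and 8.91% of gaps were as long. Above the strongest site, in the part of the cluster that ends with Hoxd1 and beyond it, no peak of either list followed for 248.6 kb. Gaps of that length or longer made up 12.3% of those between NSC peaks and 14.9% of those between AST peaks. The site that ended this gap, at chr2:74802397-74802768, had 14.08 in NSCs (78.0th percentile) and 11.40 in ASTs (77.4th). A missing peak is one that was not called, and need not mean an unbound site.

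The next comparison asked how far stem cells and astrocytes shared these sites. Inside the clusters, 13 of the 18 NSC peaks had an AST partner (72.2%, 46.5 to 90.3), against 65.5% of all NSC peaks, and 13 of the 15 AST peaks had an NSC partner (86.7%, 59.5 to 98.3), against 74.7% of all AST peaks. In the flanks 16 of 22 NSC peaks were shared (72.7%, 49.8 to 89.3), and among AST peaks 16 of 21 (76.2%, 52.8 to 91.8). Each interval took in the share of its whole list, so the sharing of Hox sites was not distinguishable from that of other sites at these numbers. Of 20 sites inside the clusters, 13 were found in both cell types, 5 in NSCs alone and 2 in ASTs alone. Of 27 in the flanks, it was 16, 6 and 5.

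Sites found in 1 cell type were of low to middle rank. Those inside the clusters lay between the 2.54th and the 60.5th percentile in NSCs, and at the 13.2nd and 24.5th in ASTs. No unshared site of the Hox regions ranked higher than the 60.5th percentile, so those above it were all found in both lists. That limit was read off these same sites, and sharing above it was not computed over the whole lists. At shared sites the summits nearly coincided, with a median distance of 27 bp inside the clusters and 18.5 bp in the flanks and a highest of 64 and 66 bp. The median over all 12033 pairs of shared peaks was 19 bp.

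**Figure D3:**
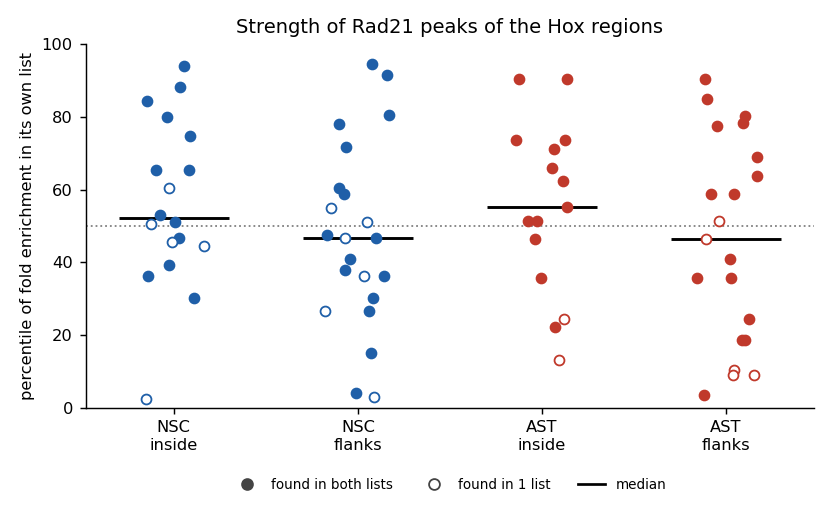
Percentile of fold enrichment within its own list (vertical axis) for each Rad21 peak inside the Hox clusters and in their flanks (horizontal axis), NSCs in blue and ASTs in red, filled where found in both lists and open where found in 1, with the median as a black bar. The medians lie at 52.1 and 46.6 in NSCs and at 55.3 and 46.4 in ASTs, close to the dotted line at the middle of the lists.

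Hox sites were of ordinary strength. The median fold enrichment inside the clusters was 8.95 in NSCs (7.92 to 13.2) and 8.36 in ASTs (6.84 to 10.65), against 8.66 and 7.98 over the whole lists. In the flanks it was 8.21 (6.45 to 10.3) and 7.60 (5.70 to 9.89). Fold enrichment inside ranged from 4.01 to 21.4 in NSCs and from 5.32 to 14.8 in ASTs. Median width was 242 bp inside and 216 bp in the flanks in NSCs, and 235 and 187 bp in ASTs, with whole-list medians of 232 and 204 bp. Background over 1.1 times the usual level was seen at 2 of 18 NSC and 2 of 15 AST peaks inside the clusters, and at 6 of 22 and 5 of 21 in the flanks. Over the whole lists it was seen at 26.8% and 33.8%. Without such peaks the density ratio was 2.96 (1.39 to 6.33) in NSCs and 2.41 (1.07 to 5.34) in ASTs.

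To set the cell types side by side at a single site, the number of fragments at each summit was computed back from the fold enrichment and the −log10 p of the peak. Over all pairs of shared peaks the median ratio of NSC to AST fragments was 1.64, and each Hox pair is given relative to it. A pair is said to lean to a cell type where the interval of its relative ratio excludes 1. Inside the clusters no pair leaned to NSCs. The highest relative ratio was that of the Hoxa site on the Hoxa13 side, with 55 fragments in NSCs and 21 in ASTs, a relative ratio of 1.59 (0.949 to 2.78). The upper Hoxc site had 45 and 19 fragments (1.44, 0.826 to 2.61). Both intervals took in 1.

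The pairs inside the clusters that leaned to ASTs were a Hoxa and a Hoxb site. At chr6:52154468-52154767 there were 22 NSC and 27 AST fragments, a relative ratio of 0.496 (0.269 to 0.904). At chr11:96155866-96156107 there were 24 and 28 (0.522, 0.289 to 0.933). In the flanks, 2 pairs leaned to ASTs, at chr6:51952844-51953074 with 18 and 23 fragments (0.476, 0.242 to 0.923) and at chr15:102961282-102961468 with 21 and 26 (0.492, 0.263 to 0.909). A single pair leaned to NSCs, the strong Hoxc flank site at chr15:102573042-102573434, with 75 and 29 fragments (1.57, 1.01 to 2.51). The strongest Hoxd site had 73 and 39 (1.14, 0.762 to 1.73) and the strongest Hoxc site inside the cluster 61 and 39 (0.952, 0.627 to 1.46).

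Among all pairs, intervals lay above 1 for 6.77% and below 1 for 5.77%. The Hox counts, none above and 2 below of 13 inside the clusters and 1 above and 2 below of 16 in the flanks, were too few to be read against this background. They also depended on the reference. Set against the ratio of the usual backgrounds, 1.30, in place of the median of all pairs, 2 pairs inside and 3 in the flanks leaned to NSCs and none to ASTs, and over all pairs the shares were 22.3% and 1.90%. The median relative ratio was 0.925 inside the clusters and 1.1 in the flanks.

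**Figure D4:**
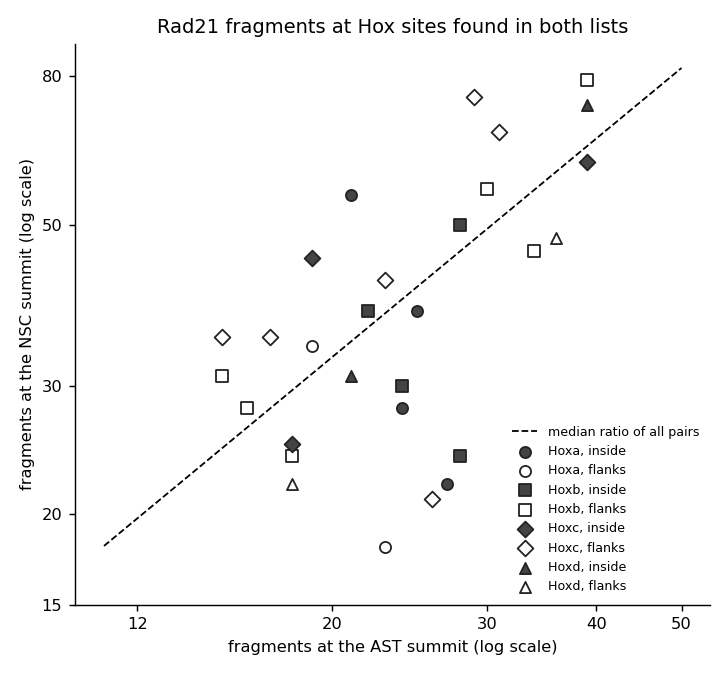
Rad21 fragments at the summit in ASTs (horizontal axis, log scale) and NSCs (vertical axis, log scale) for the 29 Hox sites found in both lists, with 1 marker shape per cluster, filled inside the cluster and open in the flanks. The dashed line is the median ratio of all 12033 pairs, 1.64. The Hoxa site with 55 NSC and 21 AST fragments lies above it, but the interval of its relative ratio took in 1 (0.949 to 2.78). Against this line only the Hoxc flank site with 75 and 29 fragments leaned to NSCs (1.01 to 2.51).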

How the data were processed

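Rad21 ChIP-seq was done in NSCs and ASTs, with 1 Rad21 and 1 input library each. Bowtie 1.0.0, MACS2 2.0.9 and genome build mm9 are named in the submitters' processing notes, without settings. For each cell type 1 peak list was deposited. Its fold enrichment, as deposited, is a ratio, fragments piled up at the summit over local background, and the deposited p-value and q-value are −log10 values from the caller, the lowest −log10 q being 1.02 and 1.03. Positions are printed counting from 1.

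Peaks were placed by their start and called shared from an overlap of 1 bp. Density intervals are Poisson, those of ratios and shares Clopper-Pearson, and those of medians from order statistics. Fragments and background were recovered by taking p as a Poisson tail, with a scale fitted per list (0.944 and 1.00), which gave back −log10 p within 0.05 for 100% and 99.99% of peaks. The median background of peaks enriched more than 8-fold, 3.22 and 2.63 fragments, was taken as usual. Pairs are mutual best overlaps.

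Peaks inside the clusters were all named. Of the flanks, the strongest peak per list and region and the unshared peaks above their list's median were named, and other flank peaks for their fragment ratio or position, after their values were seen. Regions and settings were chosen with earlier results of these data known. Scripts ran in Python 3.11.15 with scipy 1.17.1, numpy 2.4.6, matplotlib 3.10.9 and pandas 2.3.3, and the steps were tested on simulated lists.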

Additional observations from a re-analysis of the deposited data

How the results depend on the processing

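Across 16 alternative settings 220 values were recomputed, and 11 of them left their interval or, for counts, changed by more than 1.5 times. When only peaks with a −log10 q of 10 or more were kept, there were 9 AST peaks inside the clusters and 10 in the flanks, with a median fold enrichment of 10.6 in the flanks, and 46.7% of NSC flank peaks were shared, against 56.9% of the whole NSC list so shortened. Flank counts fell to 12 in ASTs without Hoxb and to 12 in NSCs without Hoxc. Without peaks of raised background, an alternative added after seeing the data, 50% of AST flank peaks were shared, against 57.3% of the whole AST list. Both settings shorten both lists, so partners are lost too. The other 4 are the counts of pairs against the ratio of the usual backgrounds, also added later, 2 towards NSCs and 0 towards ASTs inside the clusters, and 3 and 0 in the flanks. The density ratio stayed above 1 in both lists under all 12 settings that gave one, and its interval above 1 under 9 in NSCs and 8 in ASTs. It took in 1 in both lists with the wider edges, without Hoxa and without Hoxd, and in ASTs also at a −log10 q of 10 or more (2.67, 0.959 to 7.3). No paired analysis was possible because each cell type had a single Rad21 library. With 15 to 22 peaks per group, counting error limits every ratio, and 1 library per cell type leaves no replicate check.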
